A study of Mus musculus with 12 samples.

Results

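The aryl hydrocarbon receptor is a ligand-activated transcription factor that senses planar aromatic compounds, plant indoles and tryptophan products. The 7 genes described here were taken from the count table by symbol, and all 7 were found among 55421 gene rows: Ahr (the receptor), Arnt (its DNA-binding partner), Ahrr (its repressor), and the target genes Cyp1a1, Cyp1b1, Tiparp and Nqo1. They were picked with the response to Wnt inhibition in these libraries already known, so their values in that comparison are given as a description without a test. All 7 passed the low-count filter that left 16152 genes, but Cyp1a1 did so only through the inhibited libraries.

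Messenger RNA was sequenced from wild-type mouse gastric organoids, cultures of stomach epithelium grown in Matrigel from isolated glands. The antrum is the outlet part of the stomach and the corpus its main body, and each region was represented by 3 independent lines, numbered 8025, 8026 and 8028. Each line was treated both ways, which gave 4 groups of 3 libraries: inhibited antrum, vehicle antrum, inhibited corpus and vehicle corpus. Organoids were grown to day 4 after passage and then kept in the inhibiting medium for 24 h. This medium joined XAV939, a tankyrase inhibitor that stabilizes Axin and so lowers Wnt signalling, labelled at 1 mM, with Noggin at 100 ng/mL and with the loss of added Wnt and R-spondin. Vehicle organoids received DMSO in normal medium, which held 50% L-WRN conditioned medium. The Noggin level of that medium is not given here, so no difference in Noggin between the treatments is implied. The effect of the compound and that of the new medium cannot be told apart, and neither can region and serum, which was 10% of the growth medium for antrum and 20% for corpus. Library totals ran from 18858022 to 31656696 counts, and levels are CPM, the count scaled to the normalized library size. A count of 3, the upper limit that a count of 0 allows, equalled 0.0889 to 0.177 CPM and covers counting error only. Values of 3 lines are given in the order 8025, 8026 and 8028.

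Axin2, a feedback target of Wnt signalling, stood at 11.5, 14.3 and 11.3 CPM in inhibited antrum against 70.1, 79.0 and 77.4 CPM in vehicle antrum, and at 3.71, 5.39 and 18.7 CPM in inhibited corpus against 70.7, 64.2 and 71.4 CPM in vehicle corpus. Inhibited corpus line 8028 thus kept the most Axin2. Both libraries of corpus line 8028 also stood apart on the second principal component, with -25.3 for the inhibited and 1.78 for the vehicle library, whereas the 4 corpus libraries of lines 8025 and 8026 ranged from 28.2 to 40.9. Genes resembling ribosomal RNA took 17.2% and 6.87% of the counts in vehicle antral lines 8025 and 8028, and 0.839% to 3.45% elsewhere. Lines of vehicle antrum were the least alike, with a chi-square of counts per degree of freedom of 85.4 to 292 between them. In the other groups it was at most 79.1. The epithelial markers Epcam, Cdh1, Krt8 and Krt18 summed to 9909 to 11182 CPM in inhibited and 5286 to 6424 CPM in vehicle libraries. Krt8 had the largest log2 change (1.08 in antrum and 1.20 in corpus), and Krt18 and Cdh1 rose as well. Epcam went the other way, at -0.30 in antrum (edgeR adjusted p 0.0965) and -0.47 in corpus (0.016). The 6 mesenchymal markers summed to at most 2.48 CPM, the 2 endothelial markers to at most 0.899 CPM and the 5 immune markers to at most 0.977 CPM, with the macrophage marker Adgre1 at 0 counts in every library.

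Without a ligand the receptor rests in the cytoplasm with HSP90 and other chaperones. With a ligand it enters the nucleus, pairs with ARNT and binds xenobiotic response elements, whose core reads GCGTG. CYP1A1 and CYP1B1 oxidize aromatic ligands, AHRR competes with the receptor for ARNT, and TIPARP ADP-ribosylates the receptor, so that several target genes limit the response. NQO1, a quinone reductase, answers both to this receptor and to NRF2, the regulator of antioxidant genes. In barrier epithelia the receptor links compounds from food and microbes to detoxification.

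The start regions of the target genes are shown because the core element can be read in them directly. Of the 7 genes 6 had an entry in RefSeq's promoter table (GRCm38.p6), and Ahr had none. Each line gives the 250 bases before the start annotated by RefSeq, 5′ to 3′ on the gene's strand, in lower case, with GCGTG or its reverse complement CACGC in capitals. The windows lie at chr13:74292332-74292581 (minus strand) for Ahrr, chr9:57697363-57697612 (plus) for Cyp1a1, chr17:79715062-79715311 (minus) for Cyp1b1 and chr8:107403206-107403455 (minus) for Nqo1. The gene bounds given further on are those of GENCODE, which differ: its Cyp1a1 begins upstream of the RefSeq start, so that the Cyp1a1 window lies inside the longer gene.
Ahrr: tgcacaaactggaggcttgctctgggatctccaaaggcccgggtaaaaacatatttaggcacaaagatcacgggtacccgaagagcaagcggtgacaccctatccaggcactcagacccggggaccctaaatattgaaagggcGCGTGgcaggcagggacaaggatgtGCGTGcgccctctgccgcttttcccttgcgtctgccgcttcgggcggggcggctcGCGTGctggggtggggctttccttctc
Cyp1a1: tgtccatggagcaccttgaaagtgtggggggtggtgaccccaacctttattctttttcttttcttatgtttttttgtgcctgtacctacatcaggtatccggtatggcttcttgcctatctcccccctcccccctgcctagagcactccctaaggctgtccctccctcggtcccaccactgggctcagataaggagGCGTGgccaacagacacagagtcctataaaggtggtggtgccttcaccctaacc
Cyp1b1: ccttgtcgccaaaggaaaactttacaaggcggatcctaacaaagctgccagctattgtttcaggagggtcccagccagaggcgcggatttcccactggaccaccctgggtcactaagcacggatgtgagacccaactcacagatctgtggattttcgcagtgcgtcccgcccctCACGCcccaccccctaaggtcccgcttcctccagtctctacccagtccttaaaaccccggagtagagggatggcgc
Nqo1: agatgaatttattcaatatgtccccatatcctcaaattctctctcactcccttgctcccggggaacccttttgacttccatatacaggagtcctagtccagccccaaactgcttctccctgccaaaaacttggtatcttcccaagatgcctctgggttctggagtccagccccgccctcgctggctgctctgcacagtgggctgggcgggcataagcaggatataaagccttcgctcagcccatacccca

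The Ahrr window held 3 cores on its own strand, at 107 to 103, 82 to 78 and 27 to 23 bases before the start. The last of them lies within a match to the longer form TNGCGTG. Cyp1a1 held 1 core on its own strand at 54 to 50 bases, and Cyp1b1 held 1 on the opposite strand at 76 to 72 bases. Tiparp held 1 on the opposite strand at 170 to 166 bases, Arnt held 1 on its own strand at 29 to 25 bases, and Nqo1 held none. These distances are from the RefSeq start, and the Tiparp window, from 65528197 to 65528446, reaches past the GENCODE start of that gene. Over 32851 windows of the same length, searched on both strands, 28.2% held GCGTG at least once, 2.77% held it 3 or more times, and 4.1% held TNGCGTG. The core of the antioxidant response element, TGACNNNGC, was found in 10.2% of windows, and among these 6 genes Arnt alone matched it, with 2 matches. A match of this kind describes letters and not binding, and the known enhancer clusters of Cyp1a1 lie further upstream than the window.

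Ahr and Arnt were measured in every library, between 35.5 and 70.3 CPM. Ahr, on chromosome 12 from 35497974 to 35535038, stood at 48.4, 43.3 and 51.3 CPM in inhibited antrum, against 45.4, 35.5 and 48.3 CPM in vehicle antrum. In corpus it stood at 52.1, 54.7 and 46.3 CPM with inhibition, against 59.2, 62.9 and 48.0 CPM with vehicle. The groups overlap in both regions, and the fitted log2 differences were 0.15 ± 0.13 (SE) in antrum and -0.15 ± 0.13 in corpus. Within lines, Ahr was 1.07, 1.22 and 1.06 times its vehicle level in antrum and 0.880, 0.870 and 0.966 times in corpus. Each antral line was therefore slightly higher and each corpus line slightly lower with inhibition.

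Arnt, on chromosome 3 from 95434388 to 95497240, stood at 61.1, 60.0 and 63.3 CPM in inhibited antrum, against 58.2, 50.5 and 58.6 CPM in vehicle antrum. Corpus libraries held 70.3, 69.4 and 53.6 CPM with inhibition, against 59.1, 61.6 and 56.9 CPM with vehicle. The antral groups do not overlap and the corpus groups do, because inhibited line 8028 lay below all 3 vehicle libraries. Fitted log2 differences were 0.14 ± 0.10 (SE) in antrum and 0.12 ± 0.10 in corpus, and the corpus value was -0.04 with scaling by total counts. The row of Ahr overlaps Gm48236 on the other strand, and Arnt overlaps Gm42672 on its own strand.

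**Figure D1:**
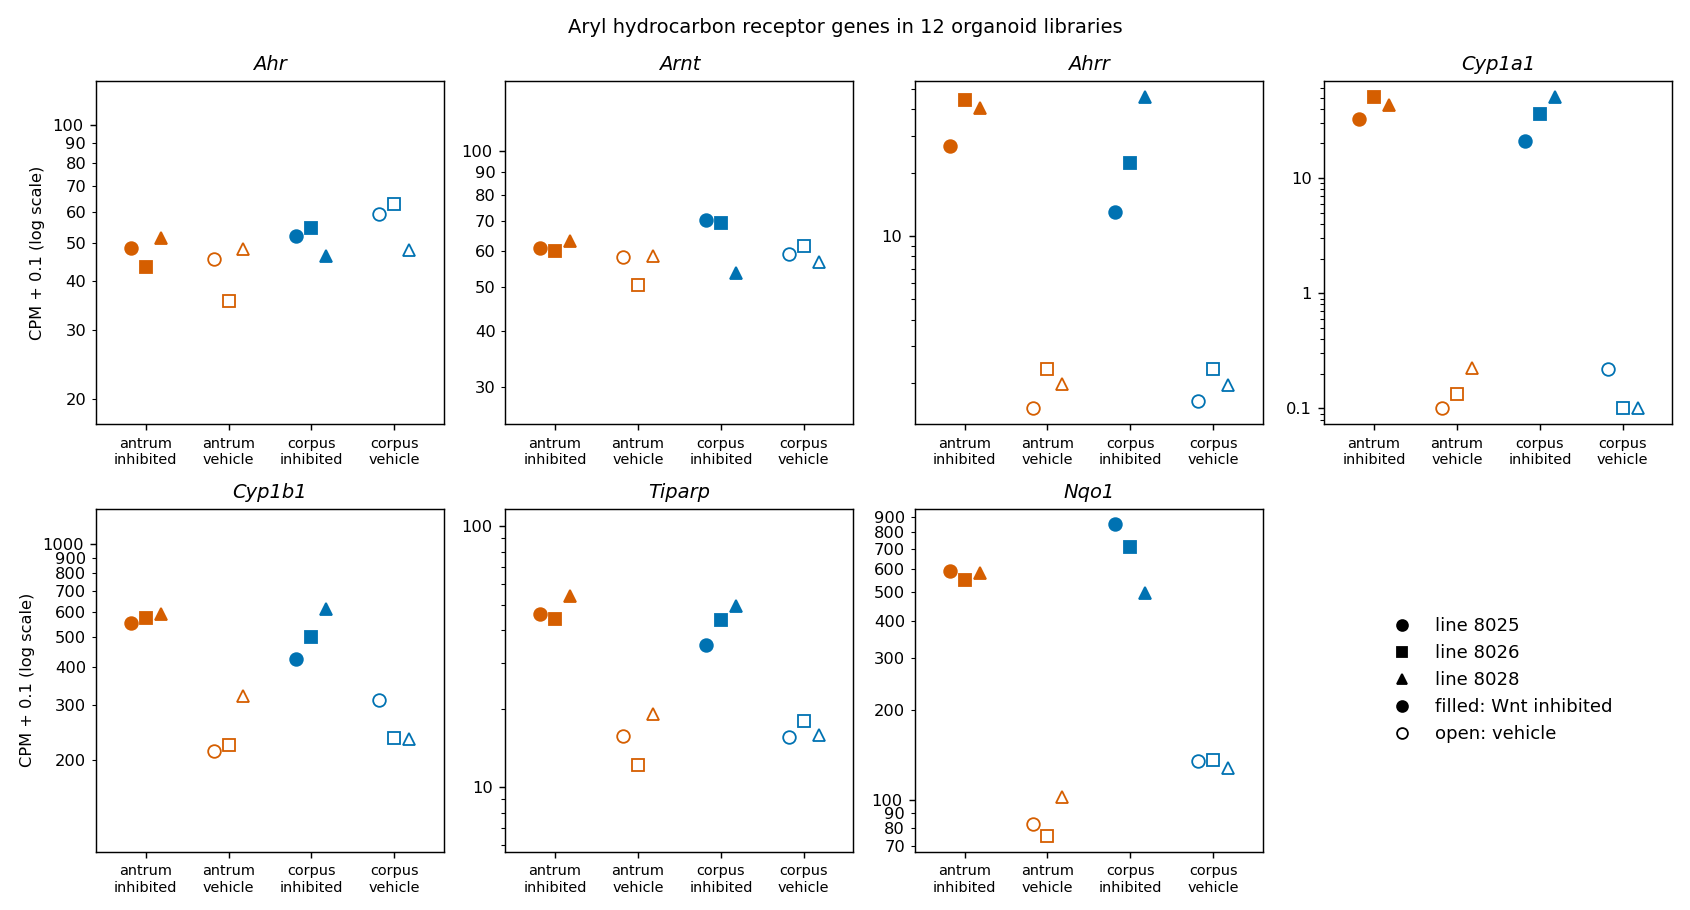
Level of each of the 7 genes in every library, as CPM + 0.1 on a log scale with 1 panel per gene. Filled points are inhibited and open points vehicle libraries, orange is antrum and blue is corpus, and the marker shape gives the line. Ahr and Arnt stay between 35.5 and 70.3 CPM throughout, whereas filled and open points of the other 5 genes do not overlap within a region.

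The 5 genes other than Ahr and Arnt were higher in inhibited than in vehicle libraries of both regions, without overlap of the groups in either. Of all tested genes, 29.7% had an edgeR adjusted p below 0.05 in antrum (16.3% higher) and 30.9% in corpus (15.5% higher). Higher groups without overlap were seen in 24.1% of tested genes in antrum and 19.7% in corpus. Since the genes were picked for this comparison, nothing is read from these counts. In bulk RNA, more cells of a type and more RNA per cell cannot be told apart. The 6 gastric mucosal markers Muc6, Tff2, Gkn1, Gkn2, Tff1 and Muc5ac, of which 5 rose and Muc6 fell in both regions, summed to 4391 to 4887 CPM in inhibited antrum against 638 to 950.3 CPM in vehicle antrum. They summed to 2665.5 to 3922 CPM in inhibited corpus against 585 to 699.96 CPM in vehicle corpus. The part of such a shift in cell makeup in the values below was not tested.

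Ahrr, the repressor, lies on chromosome 13 from 74211118 to 74292331. It stood at 26.8, 44.4 and 40.7 CPM in inhibited antrum against 1.42, 2.24 and 1.88 CPM in vehicle antrum. Corpus libraries held 12.9, 22.1 and 45.9 CPM with inhibition, against 1.54, 2.23 and 1.86 CPM with vehicle. Vehicle levels thus lay in the same range in the 2 regions, while inhibited corpus lines spread over a 3.57-fold range. The within-line folds were 18.9, 19.8 and 21.6 in antrum and 8.34, 9.90 and 24.6 in corpus. The fitted log2 changes were 4.30 ± 0.45 (SE) in antrum and 3.84 ± 0.44 in corpus, and the corpus value was 3.24 without both libraries of line 8028.

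Cyp1a1, which encodes the monooxygenase most used as a readout of the receptor, lies on chromosome 9 from 57687928 to 57703824. It had 931, 1345 and 1090 counts in inhibited antrum (32.8, 50.2 and 42.6 CPM) against 0, 1 and 3 counts in vehicle antrum. In corpus it had 507, 832 and 1351 counts with inhibition (20.9, 35.6 and 50.8 CPM) against 4, 0 and 0 counts with vehicle. Vehicle libraries thus held almost no Cyp1a1 reads, at or near the floor of 3 counts. Where the vehicle library of the line held 0 counts, the level with inhibition was at least 185-fold higher in antral line 8025, at least 372-fold higher in corpus line 8026 and at least 509-fold higher in corpus line 8028. With so few vehicle counts the fitted change depends on single libraries. Without vehicle corpus line 8025, which held all 4 vehicle counts of corpus, the fitted log2 change was 12.88 in place of 9.58 ± 0.60 (SE). Without vehicle antral line 8028 it was 10.67 in place of 9.43 ± 0.61.

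Cyp1a2, the neighbour of Cyp1a1 on chromosome 9 and a liver target of the receptor, was below the filter, with 44 counts in all. Of these, 8, 12 and 5 lay in inhibited antrum and 3, 6 and 10 in inhibited corpus, and all 6 vehicle libraries held 0. The coding sequences of Cyp1a1 and Cyp1a2 are similar, so single reads may have been shared between the rows.

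Cyp1b1, which encodes a second oxidase of aromatic compounds and estrogens, lies on chromosome 17 from 79701537 to 79715061. It stood at 553, 575 and 593 CPM in inhibited antrum against 213, 223 and 322 CPM in vehicle antrum. In corpus it stood at 423, 499.8 and 614 CPM with inhibition, against 312, 235 and 234 CPM with vehicle. In contrast to Cyp1a1, Cyp1b1 was already well expressed with vehicle, and its log2 changes were 1.18 ± 0.18 (SE) in antrum and 0.98 ± 0.18 in corpus. Corpus line 8025, with the highest vehicle and the lowest inhibited level of its region, had the smallest within-line fold, 1.36, against 2.13 and 2.63 in lines 8026 and 8028. The antral folds were 2.60, 2.58 and 1.84.

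Tiparp, the ADP-ribosyltransferase that acts on the receptor, lies on chromosome 3 from 65528410 to 65555518. It stood at 46.2, 43.9 and 54.2 CPM in inhibited antrum against 15.7, 12.1 and 18.99 CPM in vehicle antrum. Corpus libraries held 34.9, 43.5 and 49.5 CPM with inhibition, against 15.5, 17.8 and 15.7 CPM with vehicle. Its 6 within-line folds were close together, at 2.94, 3.63 and 2.85 in antrum and 2.25, 2.44 and 3.14 in corpus. The log2 changes were 1.63 ± 0.17 (SE) and 1.38 ± 0.17. The row overlaps 4931440P22Rik on the other strand.

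Nqo1, the quinone reductase, lies on chromosome 8 from 107388225 to 107403206. It stood at 592, 551 and 581 CPM in inhibited antrum against 82.5, 75.2 and 102 CPM in vehicle antrum. In corpus it stood at 848, 712 and 499 CPM with inhibition, against 135, 136 and 128 CPM with vehicle. The 3 inhibited antral lines lay close together, within a 1.08-fold range, and the inhibited corpus lines within a 1.70-fold range. The within-line folds were 7.18, 7.32 and 5.69 in antrum and 6.27, 5.24 and 3.90 in corpus, with log2 changes of 2.73 ± 0.17 (SE) and 2.37 ± 0.17.

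Among the 3 inhibited corpus libraries, line 8028 was highest in Ahrr, Cyp1a1, Cyp1b1 and Tiparp and lowest in Nqo1, Ahr and Arnt. Line 8025 was lowest in Ahrr, Cyp1a1, Cyp1b1 and Tiparp and highest in Nqo1 and Arnt. Axin2 ran the same way across these libraries as Ahrr, with 3.71, 5.39 and 18.7 CPM. These are 3 libraries, 1 of which stood apart in its whole profile, and the part of that in these orders was not tested.

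**Figure D2:**
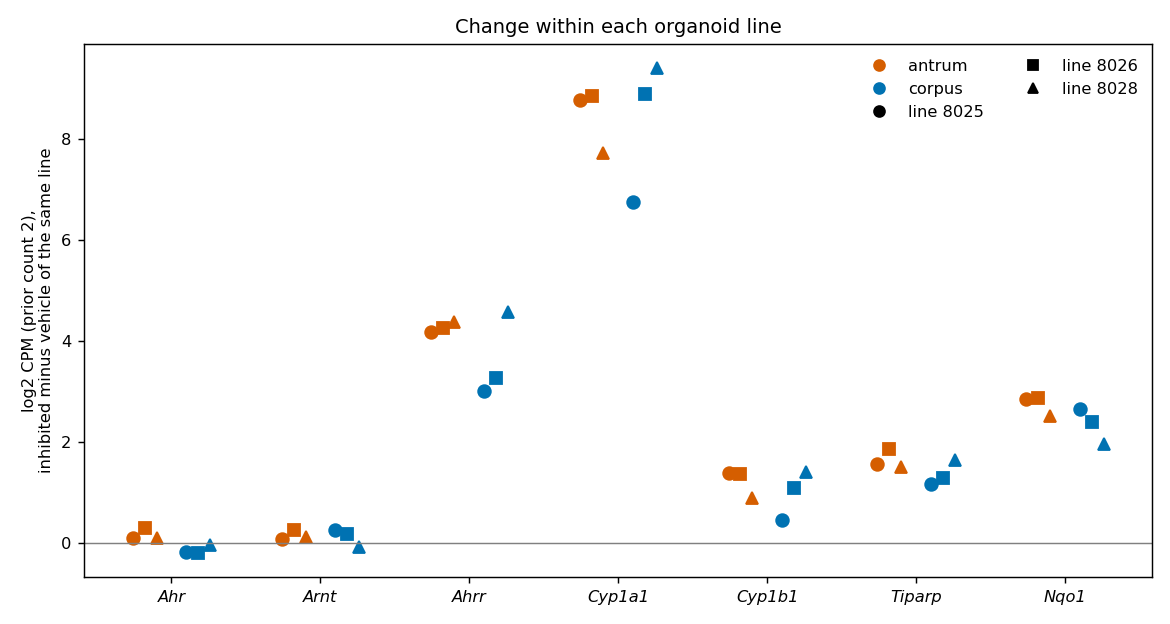
Change of each gene within a line, as log2 CPM (prior count 2) of the inhibited minus the vehicle library of the same line. Orange is antrum, blue is corpus and the shape gives the line. Ahr is above 0 in all 3 antral lines and below 0 in all 3 corpus lines, and corpus line 8028 lies above the other corpus lines for Ahrr, Cyp1a1, Cyp1b1 and Tiparp and below them for Nqo1.

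Levels of different genes were compared per kilobase of exon (CPM per kb, over the annotated exons of each gene), as the lowest, median and highest of 6 libraries. In inhibited libraries Nqo1 led with 322, 378 and 546 CPM per kb, followed by Cyp1b1 with 72.4, 96.6 and 105 CPM per kb. Next came Cyp1a1 (7.50, 14.0 and 18.2), Tiparp (8.02, 10.3 and 12.4), Ahr (7.03, 8.09 and 8.87) and Arnt (6.70, 7.77 and 8.78), whose ranges overlap, so that their order is not settled. Ahrr was below them at 1.36, 3.57 and 4.86 CPM per kb. With vehicle, Nqo1 (48.4, 74.1 and 87.5) and Cyp1b1 (36.4, 40.1 and 55.1) overlapped at the top, and Ahr (5.76, 7.81 and 10.2) and Arnt (6.31, 7.29 and 7.69) overlapped below them. Tiparp followed with 2.77, 3.61 and 4.36 CPM per kb and Ahrr with 0.150, 0.198 and 0.237 CPM per kb. Cyp1a1 was last, at 0 to 0.0449 CPM per kb. Cyp1a1 thus stood at the bottom of the 7 genes with vehicle and within the range of the receptor and its partner, or above it, with inhibition.

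The comparison of antrum with corpus had not been used to pick the genes, so it was tested for each of them with edgeR's quasi-likelihood test, adjusted over all 16152 genes. None of the 7 passed an adjusted p of 0.05 with inhibition, with vehicle, or in the difference between the 2 responses. That difference is built from the responses known when the genes were picked, so its test is not independent of the choice. Few genes passed at all: 0.0619% of tested genes passed with inhibition, 0.198% with vehicle and 0.00619% in the difference in response. At an unadjusted p below 0.05 these comparisons held 1493, 2490 and 638 genes, among them Nqo1 and Ahr with vehicle. DESeq2 called Nqo1 with vehicle, alone of the 7 (adjusted p 0.0211), where 3.08% of all genes passed.

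With vehicle, Nqo1 was lower in antrum, at 86.6 ± 13.9 CPM against 133 ± 4.42 CPM in corpus (SD, n = 3 each). The log2 difference was -0.62 ± 0.16 (SE, 95% interval -0.998 to -0.24, edgeR adjusted p 0.133), and the groups did not overlap, as in 12.8% of tested genes with antrum lower. Ahr with vehicle stood at 43.1 ± 6.73 CPM in antrum and 56.7 ± 7.76 CPM in corpus, with a log2 difference of -0.40 ± 0.13 (95% interval -0.70 to -0.10, edgeR adjusted p 0.205) and overlapping groups. The 4 other measured targets and Arnt differed by at most 0.38 with vehicle, and the interval for Cyp1a1 ran from -3.50 to 4.27. With inhibition, Ahrr stood at 37.3 ± 9.31 CPM in antrum and 26.9 ± 17.0 CPM in corpus, a log2 difference of 0.47 ± 0.36 (edgeR adjusted p 0.689). Nqo1 stood at 575 ± 21.5 CPM in antrum and 687 ± 176 CPM in corpus, a difference of -0.26 ± 0.16 (edgeR adjusted p 0.622). Cyp1a1 differed by 0.23 ± 0.30 (95% interval -0.48 to 0.93, edgeR adjusted p 0.795), Tiparp by 0.17 ± 0.16 and Cyp1b1 by 0.16 ± 0.18. In the difference between responses, antrum minus corpus, the intervals ran from -0.17 to 0.89 for Nqo1, from -0.29 to 0.78 for Tiparp, from -0.37 to 0.78 for Cyp1b1 and from -0.94 to 1.86 for Ahrr.

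Leaving out both libraries of corpus line 8028 changed 4 of these calls. With inhibition the log2 difference of Ahrr was then 1.09 ± 0.28, higher in antrum (edgeR adjusted p 0.0323), and Nqo1 differed by -0.44 ± 0.11 (edgeR adjusted p 0.0298). With vehicle Nqo1 differed by -0.65 ± 0.12 (edgeR adjusted p 0.0144) and Ahr by -0.50 ± 0.12 (edgeR adjusted p 0.0323). The background moved as well, since without that line 14.6% of genes passed with inhibition and 6.6% with vehicle. Without the inhibited library of corpus line 8028 alone, Ahrr and Nqo1 with inhibition had edgeR adjusted p of 0.0313 and 0.0317, and 11.4% of genes passed.

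**Figure D3:**
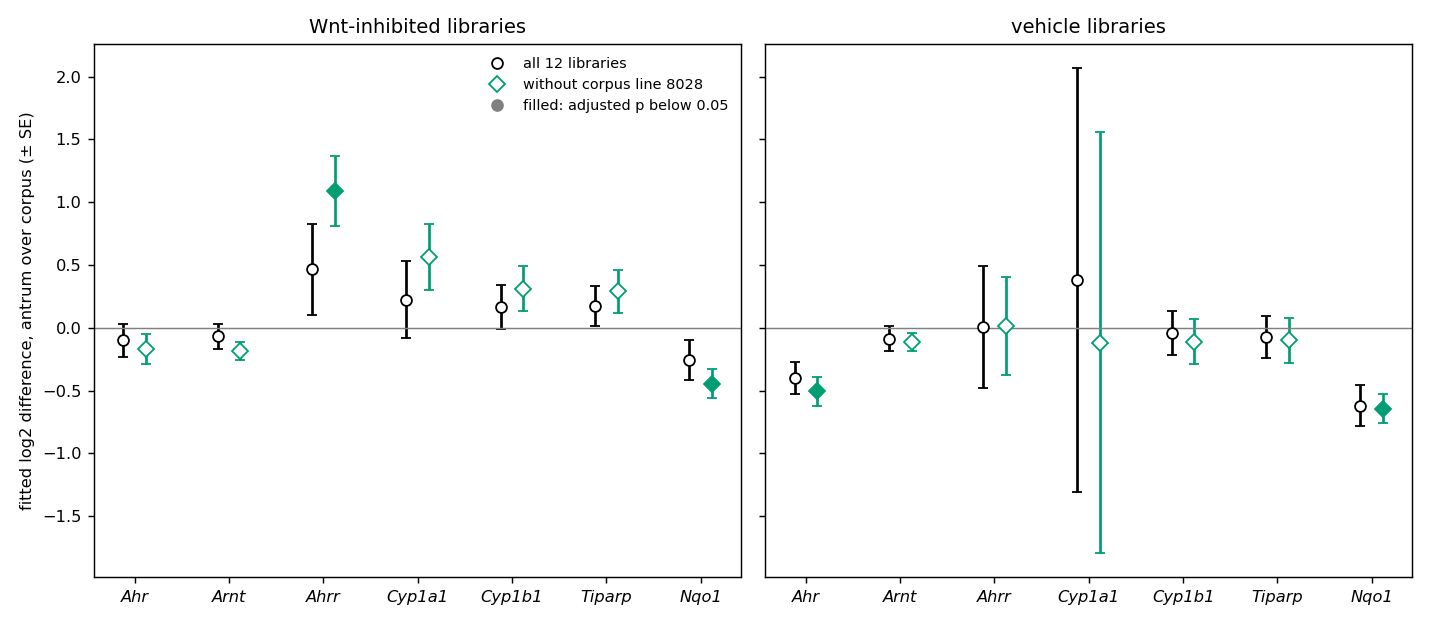
Fitted log2 difference of antrum over corpus for each gene, with its standard error, in inhibited libraries (left) and vehicle libraries (right). Black circles use all 12 libraries and green diamonds leave out both libraries of corpus line 8028, and filled markers have an adjusted p below 0.05. No black circle is filled, and the filled diamonds are Ahrr and Nqo1 with inhibition and Ahr and Nqo1 with vehicle.

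Genes of the pathway outside the 7 were tested in the treatment comparisons as part of the whole table. Of 60 listed genes, 51 were measured above the filter. In antrum 18 rose and 3 fell (41.2% called, against 29.7% of all tested genes), and in corpus 23 rose and 3 fell (51.0% called, against 30.9%). Their median log2 change was 0.15 in antrum and 0.17 in corpus, where that of all tested genes was -0.04 in both. The lists were chosen with earlier results of this comparison known, so nothing is read from their shares and medians beside those of all genes.

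None of 4 chaperone genes and none of 4 receptor turnover genes was called in either region in the main edgeR fit, which holds no line block. With the line as a block, 7 pathway genes fell in antrum and 6 in corpus, in place of 3 in each. The added falls include genes of these lists in both regions, so the lack of calls holds only for the fit without the block. Without the block, the 4 chaperone genes, among them Hsp90aa1, Hsp90ab1 and Ptges3 (p23), had a median of -0.16 in antrum and -0.21 in corpus. Their edgeR adjusted p in that fit ran from 0.0801 to 0.29. The genes of a ubiquitin ligase assembly reported for the receptor, Cul4b, Ddb1, Rbx1 and Tbl3, had medians of -0.07 and -0.12.

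Among 5 measured relatives of ARNT and the receptor, Epas1, the hypoxia factor HIF-2α that also pairs with ARNT, rose in both regions. It stood at 36.7 ± 2.19 CPM in inhibited antrum against 16.7 ± 2.39 CPM in vehicle antrum (SD, n = 3; log2 change 1.14 ± 0.11 SE, edgeR adjusted p 3e-05). In corpus it stood at 32.8 ± 2.88 CPM with inhibition against 17.1 ± 1.56 CPM with vehicle (0.94 ± 0.11, edgeR adjusted p 0.000106). Hif1a fell in antrum, with a log2 change of -0.30 (edgeR adjusted p 0.0125), a call lost without inhibited line 8025 (0.061) or vehicle line 8025 (0.0579), and it stood at -0.17 in corpus. Arnt2, with 463 counts in all, fell in corpus (-1.06 ± 0.36, edgeR adjusted p 0.0465), and this call was lost without any one corpus library other than inhibited line 8025 (0.0561 to 0.195), and also with RLE scaling (0.0512), without a filter (0.052) and with only the corpus libraries (0.111).

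Of 10 coregulator genes, 1 rose and 1 fell in each region. Ncoa3, a coactivator with acetyltransferase activity, rose in both regions, with log2 changes of 0.56 ± 0.07 in antrum and 0.49 ± 0.07 in corpus (SE; edgeR adjusted p 0.000157 and 0.000391). Ncoa1, Ncoa2, Ep300, Crebbp, Nrip1, Ncor1, Med1 and Smarca4 lay between -0.06 and 0.17 in both regions.

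Most further known targets of the receptor rose in both regions. Of 13 listed, 11 were measured, of which 8 rose and 1 fell in antrum and 9 rose in corpus. Their median log2 changes were 1.67 and 1.46. Of all tested genes 16.3% rose in antrum and 15.5% in corpus, and the list was chosen with earlier results known. A gene listed here may answer to NRF2 as well, and which factor lay behind each rise was not tested. Aldh3a1, an aldehyde dehydrogenase induced through the receptor in many cells, had 653 ± 48.6 CPM in inhibited antrum against 66.1 ± 15.8 CPM in vehicle antrum (SD, n = 3; log2 change 3.30 ± 0.18 SE, edgeR adjusted p 1.04e-06). In corpus it had 800.4 ± 154 CPM against 146 ± 14.5 CPM (2.46 ± 0.18, edgeR adjusted p 4.41e-06). Gsta1, a glutathione transferase, changed by 3.13 ± 0.24 and 2.76 ± 0.24 (edgeR adjusted p 5.77e-06 and 1.3e-05). Ugt1a6b, a glucuronosyltransferase, changed by 3.66 ± 0.38 and 2.54 ± 0.32 (edgeR adjusted p 3.64e-05 and 0.000153), from low counts.

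Gsta1 and Gsta2 are near copies of each other, and Ugt1a6a and Ugt1a6b share their last exons with the other genes of the Ugt1a cluster, so the split of reads between them is uncertain. Ugt1a6a (3.08 and 2.28), Gsta2 (1.91 and 1.83), Cyp2s1 (1.67 and 1.46), Ugdh (1.38 and 1.19) and Nfe2l2, which encodes NRF2 (0.86 and 0.67), rose in antrum and corpus, with edgeR adjusted p of at most 0.00635. With only the antral libraries Gsta2 did not pass in antrum (0.0547). Slc7a5, an amino acid transporter, fell in antrum (-0.52 ± 0.10, edgeR adjusted p 0.00237) and stood at -0.03 in corpus, and Xdh passed in neither region. None of the 51 genes differed in response between regions, where Ugt1a6a came closest (0.80 ± 0.14 higher in antrum, unadjusted p 9.68e-05, edgeR adjusted p 0.781).

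Genes listed for NRF2, which has Nqo1 among its targets too, rose in 6 of 10 cases in antrum and 10 of 10 in corpus. The 10 genes, Keap1 among them, had median log2 changes of 0.42 and 0.49. Of all tested genes 16.3% rose in antrum and 15.5% in corpus. This list too was chosen with earlier results known, so nothing is read from its counts. Srxn1, which encodes sulfiredoxin, had 197 ± 7.73 CPM in inhibited antrum against 118 ± 30.3 CPM in vehicle antrum (SD, n = 3; 0.74 ± 0.16 SE, edgeR adjusted p 0.00449). In corpus Srxn1 had 214 ± 24.2 CPM against 118 ± 11.7 CPM (0.85 ± 0.16, edgeR adjusted p 0.00181). Gclc, the catalytic subunit of glutathione synthesis's first enzyme, changed by 1.08 ± 0.30 and 1.09 ± 0.30 (edgeR adjusted p 0.0189 and 0.0166), and Me1, malic enzyme, by 0.80 ± 0.17 and 0.61 ± 0.17 (0.00502 and 0.0199). The antral call of Gclc was lost without inhibited line 8028 (0.0586), and its corpus call without inhibited line 8025 (0.0564) or 8026 (0.0552). Without a low-count filter Gclc passed in neither antrum (0.0758) nor corpus (0.0712), and with only the antral libraries it did not pass in antrum (0.0533). The corpus call of Me1 was lost without inhibited line 8025 (0.0657) or 8026 (0.0538) or vehicle line 8026 (0.0639). With total counts 3 of the 10 rose in corpus, 5 rose without inhibited corpus line 8025 or 8026, and 6 without vehicle corpus line 8026.

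**Figure D4:**
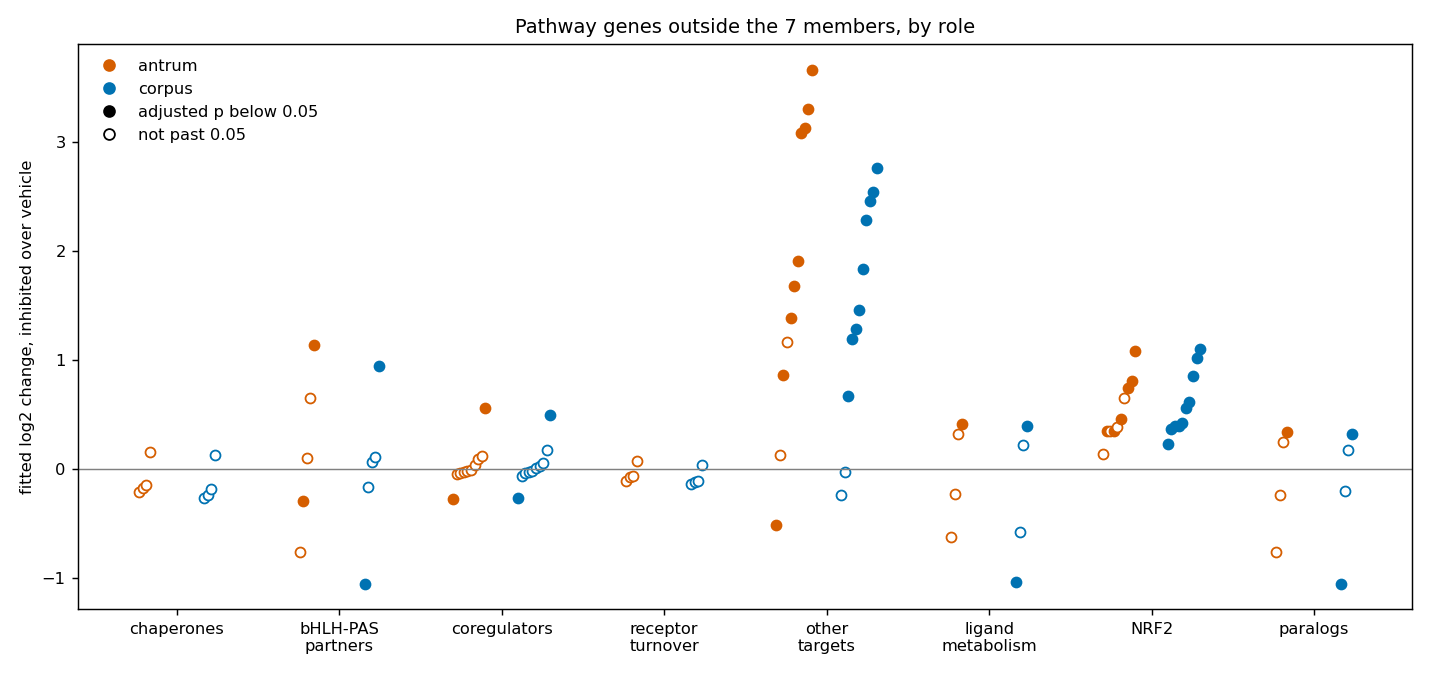
Fitted log2 change of inhibited over vehicle for each measured pathway gene outside the 7, grouped by role. Orange is antrum, blue is corpus, and filled points have an adjusted p below 0.05. The fit holds no line block. In it the other receptor targets reach 3.66, while chaperone and turnover genes hold no filled point.

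Of 9 listed genes of the metabolism of tryptophan to ligands of the receptor, 4 were measured: Kyat1, Kyat3, Afmid and Il4i1, of which Il4i1 passed in neither region. Of the others, Kynu held 0 counts in all 12 libraries (at most 0.0889 to 0.177 CPM per library), Kmo 6, Tdo2 10, Ido1 43 and Ido2 79. Kyat3, a kynurenine aminotransferase, changed by -0.63 ± 0.27 in antrum (edgeR adjusted p 0.0975) and by -1.04 ± 0.27 in corpus (edgeR adjusted p 0.0131). Kyat1, a second such enzyme, changed by 0.32 ± 0.12 (edgeR adjusted p 0.0659) and 0.39 ± 0.12 (edgeR adjusted p 0.0264). With the line as a block the antral values passed as well, with an adjusted p of 0.0111 for Kyat3 and 0.0155 for Kyat1. Afmid, kynurenine formamidase, stood at 0.41 ± 0.14 in antrum (edgeR adjusted p 0.0443) and 0.22 ± 0.14 in corpus (edgeR adjusted p 0.255). The corpus call of Kyat3 was lost without vehicle line 8028 (0.0575), that of Kyat1 without any one of 4 corpus libraries, inhibited lines 8025 and 8026 and vehicle lines 8026 and 8028 (0.0634 to 0.0902), and that of Afmid without any one of 4 antral libraries, inhibited lines 8025 and 8028 and vehicle lines 8025 and 8026 (0.0987 to 0.146). With only the corpus libraries neither Kyat3 (0.0622) nor Kyat1 (0.078) passed in corpus, and with total counts Kyat1 did not (0.128). Afmid did not pass in antrum with upper quartile scaling (0.0834), total counts (0.112) or no filter (0.0579).

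Across the 12 libraries, the genes whose level followed Cyp1a1, Ahrr and Nqo1 most closely were ranked by Pearson's r of log2 CPM among 11024 genes with a mean of at least 5 CPM. All points share the split by treatment, which by itself gives high values, so r is a description only. Nearest to Cyp1a1 were Alas1 (r = 0.993), Shtn1 (0.992), D1Ertd622e (0.992), Ethe1 (0.991) and Adap1 (0.991). Alas1, the first enzyme of haem synthesis, had 174 ± 9.61 CPM in inhibited antrum against 70.3 ± 2.74 CPM in vehicle antrum, and 164 ± 4.60 CPM in inhibited corpus against 69.1 ± 6.01 CPM in vehicle corpus (SD, n = 3). Ethe1, a mitochondrial sulfur dioxygenase, had 115 ± 4.89 CPM in inhibited antrum against 25.8 ± 2.18 CPM in vehicle antrum, and 106 ± 6.14 CPM in inhibited corpus against 29.0 ± 1.17 CPM in vehicle corpus.

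Nearest to Ahrr were Ihh (r = 0.985), Adamts15 (0.985), Plekha6 (0.984), Cmpk1 (0.984) and Fam120a (0.983). Adamts15, an extracellular protease, had 33.2 ± 4.11 CPM in inhibited antrum against 2.06 ± 0.170 CPM in vehicle antrum, and 20.1 ± 8.75 CPM in inhibited corpus against 2.10 ± 0.605 CPM in vehicle corpus (SD, n = 3). Nearest to Nqo1 were Gsta4 (r = 0.999), Fa2h (0.997), Scamp5 (0.996), Gm3776 (0.996) and Tdrd7 (0.995). Gsta4, a glutathione transferase, had 2365 ± 82.8 CPM in inhibited antrum against 484 ± 65.2 CPM in vehicle antrum, and 2546 ± 501 CPM in inhibited corpus against 641 ± 11.1 CPM in vehicle corpus. Gm3776 is annotated beside Gsta1 and Gsta2 as a close copy, so its counts are uncertain too.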

How the data were processed

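Libraries were made from polyA-selected RNA of 12 organoid cultures, as the labels' protocols state. Expected counts per gene were deposited by the authors. Per the submitters' processing notes, RSEM 1.3.3, STAR 2.7.8a, FastQC 0.11.8 and cutadapt 2.3 were used with GRCm38. The sources used here give neither strandedness nor annotation release. Values were already whole, so rounding changed none. Of 55426 rows, 5 transgene rows with 2 counts in all were left out.

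The main test was that of edgeR 4.0.16 under R 4.3.3 (quasi-likelihood, TMM, filterByExpr by group, all 12 libraries, 8 residual degrees of freedom, two-sided, Benjamini-Hochberg at 0.05). Standard errors are the log2 change over the square root of its F statistic. Where vehicle counts are near the floor, as for Cyp1a1, they are not a full measure of error. The procedure was tested on simulated data. Gene positions and exon lengths are from GENCODE M21 on GRCm38.

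The 7 genes and all gene lists were chosen with earlier results of these data known. Named were the 7 genes, Axin2, up to 3 called genes per list by size of change (values of other list genes are given too), and the 5 genes most correlated with Cyp1a1, Ahrr and Nqo1. Others named were chosen after their values were seen. Some listed genes are counted but not reported here by name. Line numbers pair both treatments of a region, since the same lines were treated both ways (deviations correlated at 0.157 to 0.544). Across regions the correlations ran from -0.104 to 0.277, a range that overlaps the former. Line 8025 was positive with vehicle (0.133) and with inhibition (0.277). Whether a line number also pairs the regions is not settled by these values. Alternatives were other scalings and filters, DESeq2 1.42.0, a line block, only the libraries compared, and leaving out libraries.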

Additional observations from a re-analysis of the deposited data

Results flagged for a closer look

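Ahr moved one way in every antral line and the other way in every corpus line. It was 1.07, 1.22 and 1.06 times its vehicle level in antral lines 8025, 8026 and 8028, and 0.880, 0.870 and 0.966 times in the corpus lines of the same numbers. The difference between the 2 responses was 0.30 ± 0.18 (SE) on the log2 scale, and as an interaction term in edgeR it had an unadjusted p of 0.13 and an adjusted p of 1. Its 95% interval ran from -0.12 to 0.72.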

How the results depend on the processing

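All 5 target genes stayed higher with inhibition in both regions under each of 15 alternatives; their fitted log2 changes ranged from 4.06 to 4.50 in antrum and 3.24 to 4.19 in corpus for Ahrr, and from 2.66 to 2.94 and 2.20 to 2.58 for Nqo1. Scaling by total counts moved the median of all genes to -0.12 in antrum and -0.19 in corpus, gave Arnt -0.04 and Ahr -0.31 in corpus, and made 26.4% of corpus calls higher in place of 50.1%; upper quartile scaling made 43.6%, and total counts 44.4%, of antral calls higher in place of 54.99%.

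The count of genes called was 4794 in antrum, 3450 to 4207 without single libraries, 6594 with the line block and 2740 without vehicle antral lines 8025 and 8028 (a setting added once the data had been seen). In corpus it was 4985, and 3743 to 6888 without single libraries and 7022 with the line block. Pathway genes called were 21 in antrum (17 to 24 without single libraries, 27 with the line block) and 26 in corpus (18 to 30, and 27 with the block). NRF2 genes called were 6 in antrum (4 to 8) and 10 in corpus (5 to 10).

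Between regions with vehicle 32 genes passed, and 17 with RLE, 18 with upper quartile, 61 with total counts, 68 without a filter, 497 with DESeq2, 69 with the block, 18 with only those libraries, 1080 without corpus line 8028, 2 without vehicle antral lines 8025 and 8028, and 1 to 70 without single libraries. With inhibition 10 passed, and 3 with upper quartile or total counts, 16 without a filter, 149 with DESeq2, 37 with the block, 0 with only those libraries, 2386 without corpus line 8028, and 0 to 1883 without single libraries. In the difference in response 1 passed (Akr1c14), 9 with DESeq2, 7 with the block, 3 without corpus line 8028, and 0 to 5 without single libraries. The causes were not tested. With the block the 7 genes gained no call between regions. Hmox1 lost its corpus call (edgeR adjusted p 0.0661), and Gclm (0.03) and Arnt2 (0.0372) gained one in antrum. The antral calls of Kyat1 and Kyat3 were gained as well, and chaperone or turnover genes gained calls in both regions. Depth limits Cyp1a1 with vehicle, where 0 to 4 counts per library fix no level.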

Other observations

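Relatives of the target genes were measured at modest levels. Nqo2, the paralog of Nqo1 that uses another cofactor, had 20.9 ± 0.596 CPM in inhibited antrum against 16.6 ± 0.954 CPM in vehicle antrum (SD, n = 3; log2 change 0.34 ± 0.10 SE, edgeR adjusted p 0.024). In corpus Nqo2 had 19.1 ± 2.41 CPM against 15.3 ± 1.03 CPM (0.31 ± 0.10, edgeR adjusted p 0.0322). The antral call was lost without inhibited line 8025 (0.0696), inhibited line 8026 (0.0699) or vehicle line 8026 (0.0658), and the corpus call without vehicle line 8026 (0.12) or both libraries of line 8028 (0.0576). With total counts Nqo2 passed in neither antrum (0.27, adjusted p 0.106) nor corpus (0.16, adjusted p 0.314), and its corpus call was also lost without a filter (0.0619) and with only the corpus libraries (0.12). Parp12 and Parp11, ADP-ribosyltransferases related to Tiparp, stood at 0.25 and -0.25 in antrum and 0.17 and -0.21 in corpus, with edgeR adjusted p from 0.0716 to 0.205. The rise of Nqo1, 2.73 in antrum and 2.37 in corpus, was thus accompanied by a change of its paralog of less than 0.35.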
